A study of Mus musculus with 24 samples.

Results

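Oxidative phosphorylation subunit genes were followed in mouse distal colon during T cell transfer colitis. The members are the 108 gene symbols, of 43280 in the count files, that begin with Nduf followed by a, b, c, s or v, with Uqcr, with Cox and a digit between 4 and 8, with Atp5, or with mt-Nd, mt-Co, mt-Cytb or mt-Atp, together with Sdha, Sdhb, Sdhc and Sdhd. They comprise 95 nuclear-encoded genes and the 13 protein genes of mitochondrial DNA. By symbol, 38 belong to complex I, 4 to complex II, 8 to complex III, 18 to complex IV and 15 to complex V, while 9 are assembly factors or other genes that share the prefix (Ndufaf1 to Ndufaf7, Atp5s and Atp5sl) and 3 are pseudogenes.

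The 24 libraries were polyA-selected RNA from the colon of female C.B-17/Icr-scid/scid mice, which lack T and B lymphocytes and were 7 weeks of age at purchase, with 4 libraries in each of 6 groups. Into mice of 5 groups, CD4+ T cells of BALB/c spleens that had been stimulated with concanavalin A and interleukin 2 were transferred on day 0, and the distal colon was taken on day 28. The Vehicle group was given 0.5% methylcellulose by mouth. The MEKi 0.3 and MEKi 1 groups were given enteric microparticles of a MEK inhibitor by mouth at 0.3 or 1 mg/kg daily between day 17 and day 27. The Anti-TNF and Isotype groups were injected with an anti-TNFα or an isotype control antibody at 0.1 mg per mouse every 4 days from day 17. The Normal group was untreated mice of the same strain. No group received microparticles without the drug, so effects of the carrier and of the inhibitor cannot be told apart. The labels do not say that the libraries of a group are separate animals, so p-values measure only the spread between these libraries.

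Oxidative phosphorylation passes electrons from NADH and succinate through complexes I to IV to oxygen, pumps protons across the inner mitochondrial membrane and lets them return through complex V, the ATP synthase. The proteins are encoded in separate genomes: mitochondrial DNA carries membrane subunits of complexes I and V, the cytochrome b of complex III and the catalytic core of complex IV, and the nucleus carries the rest, including all of complex II, the NADH-oxidising arm of complex I and the catalytic head of complex V. Mitochondrial DNA is transcribed as long polycistronic RNAs that are cut into single transcripts, whereas every nuclear subunit has its own promoter. In the colon, mature colonocytes rely strongly on the oxidation of butyrate in mitochondria, and smooth muscle and infiltrating leukocytes contribute respiratory transcripts of their own. In bulk tissue, fewer cells of a type and less RNA per cell cannot be told apart.

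Library totals were between 3052940 and 10587555 counts, and the antibody groups were the deepest. Normal replicate 2 and Isotype replicate 3 stood apart from their groups in mitochondrial ribosomal RNA, with 5233 and 4928 counts per 1000000 (CPM) against at most 2301 CPM in the 22 other libraries. MEKi 1 replicate 4 stood apart in nuclear-encoded members. Pancreatic acinar transcripts reached 6206 CPM in a Vehicle library and 4996 CPM in an Isotype library, against at most 15.4 CPM in Normal libraries. Groups were taken from each library's own file. In the table of the whole series, 16 of 24 column names carry the counts of a library of another name, among them 4 antibody libraries (Isotype 3, Isotype 4, Anti-TNF 1, Anti-TNF 2) for which the counts do not settle which naming is right. Summed counts of 7 T cell genes were between 35 and 68 in Normal libraries named by their own files, and between 35 and 546 in those named by the table. By their own files, Vehicle, MEKi 0.3 and MEKi 1 libraries had 504 to 816, 490 to 579 and 145 to 559. These ranges overlap, so the T cell counts do not settle the names among the oral groups. The oral groups were not tested under the names of the table.

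For 7 mitochondrial genes the counts are shared with nearly identical nuclear copies on chromosome 1 (24611535 to 24616197, GRCm38), an insertion of mitochondrial DNA in the nuclear genome. Over 345 aligned bases, mt-Nd3 and its copy Gm28438 differ by a single substitution, T3C, counted from the first base of mt-Nd3. The copies of mt-Nd4l, mt-Co2, mt-Co3, mt-Atp6 and mt-Nd4 have 0 differing bases over the aligned length, which is 294, 681, 783, 678 and 876 bases. Gm29216 covers the last 492 of the 1545 bases of mt-Co1 and differs at 6 positions, T1056A, C1057T, A1059G, A1060G, C1062A and A1066T, all near its start. The first 60 aligned bases of both pairs are shown because they hold every difference, in capitals. mt-Nd3 lies at chrM:9459-9518 (plus strand), Gm28438 at chr1:24613060-24613119 (minus strand), the mt-Co1 stretch at chrM:6381-6440 (plus strand) and Gm29216 at chr1:24616138-24616197 (minus strand), all from GENCODE M21 transcripts on GRCm38.
mt-Nd3: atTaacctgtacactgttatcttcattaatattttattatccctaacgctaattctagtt
Gm28438: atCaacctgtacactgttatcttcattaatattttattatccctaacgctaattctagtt
mt-Co1: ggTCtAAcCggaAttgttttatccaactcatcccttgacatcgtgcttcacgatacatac
Gm29216: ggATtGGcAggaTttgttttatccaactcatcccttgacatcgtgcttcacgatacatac

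Reads from identical stretches cannot be assigned by sequence, and counts stood on both the genes and their copies. How the counting treated such reads is not given in the sources used. Of all counts on mt-Nd3 and its copy, between 78.4% and 89.7% of each library stood on the copy, 26853 against 5970 counts over the series. For mt-Co3 the copy held 52.3% to 57.2%. For mt-Co1 it held 14.4% to 15.2% in Vehicle and 5.92% to 9.67% in Isotype libraries, against 9.80% to 13.7% in Normal libraries. Which gene the reads came from was not tested, and comparisons of these genes were repeated with the counts of the copies added. That repeat did not cover all shared sequence. Stretches of 50 bases shared with other genes made up 8.19% of mt-Nd2 and 7.61% of mt-Nd5. Of 765 such stretches in mt-Co1, 430 were shared with Gm29216. Among nuclear members, 50-base stretches shared with other genes made up more than 50% of the transcript for Atp5l, Atp5o, Atp5g1, Cox7c, Atp5h and the pseudogenes Atp5l2-ps and Atp5l-ps1, whose counts carry the same uncertainty.

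Per kilobase of transcript, mitochondrial-encoded genes led the set, with mean levels over all libraries of 6827 CPM per kb for mt-Co1, the catalytic core of cytochrome c oxidase, 5210 for mt-Cytb, the core of complex III, and 4019 for mt-Nd1, a membrane core subunit of complex I. The leading nuclear genes per kb were Cox6a1, a structural subunit of complex IV, with 1431 CPM per kb, and Atp5b, the catalytic beta subunit of the ATP synthase, with 1314. In plain CPM the 5 highest members were mt-Co1, mt-Cytb, mt-Nd1, mt-Nd4 and Atp5b, with means between 10547 and 2517 CPM.

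The mitochondrial-encoded genes were lower in colitis while the summed nuclear-encoded genes were nearly level. The 13 mitochondrial genes summed to 27029.5, 24015, 30072 and 29293 CPM in the 4 Vehicle libraries, against 34441, 56845, 35313 and 51494 CPM in the Normal libraries. Every Vehicle library lay below every Normal library. The 95 nuclear genes summed to 20728 ± 2401 CPM in Vehicle and 19698 ± 722.5 CPM in Normal libraries (SD, n = 4 each), a difference smaller than the spread within Vehicle. The ratio of mitochondrial to nuclear CPM was 1.34 ± 0.178 in Vehicle, 1.37 ± 0.146 in MEKi 0.3, 1.42 ± 0.176 in MEKi 1, 1.15 ± 0.298 in Anti-TNF, 1.30 ± 0.502 in Isotype and 2.25 ± 0.505 in Normal colon (SD, n = 4 each). Single libraries set the spread of the antibody groups: Isotype replicate 3 had a ratio of 2.05 against 1.04 to 1.06 in the other 3, and Anti-TNF replicate 4 had 1.60 against 0.964 to 1.04 in the other 3.

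**Figure D1:**
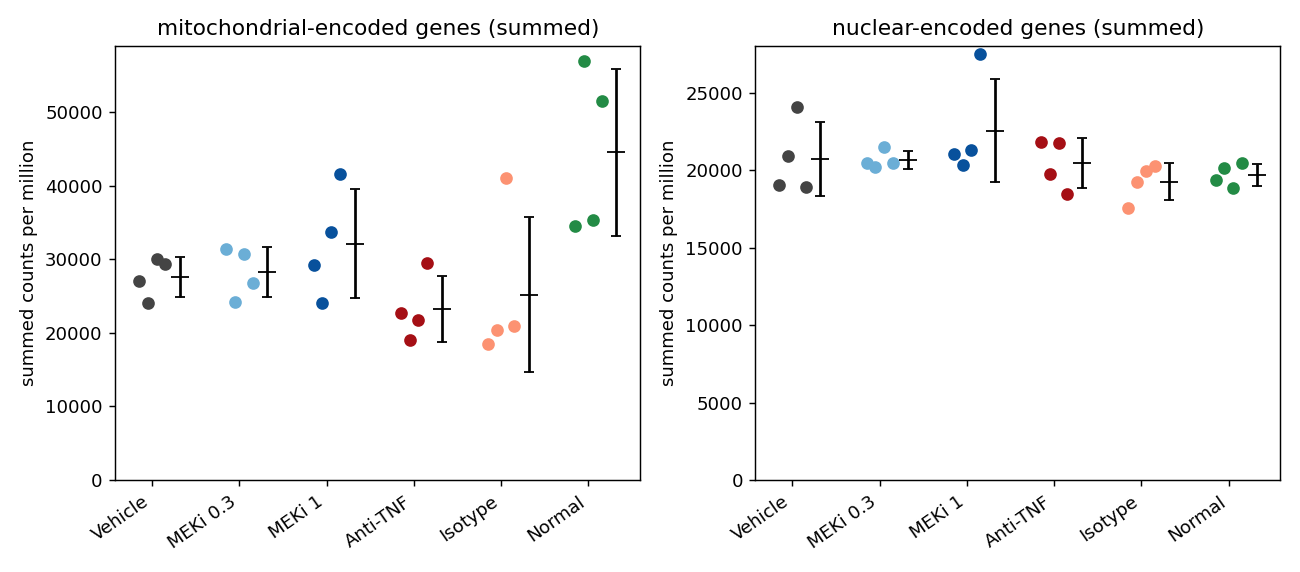
Summed CPM of the 13 mitochondrial-encoded genes (left) and the 95 nuclear-encoded genes (right) by group; points are libraries, and the bar beside them is the mean with its SD. The 4 Normal libraries lie between 34441 and 56845 CPM on the left, above the 4 Vehicle libraries at 24015 to 30072 CPM, whereas the groups overlap on the right.

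Of the 12 mitochondrial genes tested, 6 fell in Vehicle against Normal colon, none rose, and all 12 had a negative log2 fold change, with a median of -0.66 against 0.00 over all genes tested. In this comparison 46.4% of the 14773 genes tested passed an adjusted p of 0.05 with edgeR's quasi-likelihood test, 23.1% higher and 23.3% lower. Normal mice had neither the T cell transfer nor methylcellulose, so effects of colitis and of these treatments cannot be told apart. The genes that fell encode the core of complex IV, membrane subunits of complex V and a single complex I subunit. mt-Co1 had 8289, 7416, 8330 and 9558 CPM in Vehicle, against 13816, 17739, 13938.5 and 21999 CPM in Normal libraries. These groups did not overlap, and the log2 fold change was -1.06 (SE 0.25, edgeR adjusted p = 0.00142). mt-Co3, another core subunit of complex IV, averaged 724 ± 54.5 CPM in Vehicle and 1287 ± 325 CPM in Normal colon (SD, n = 4 each). It was lower by edgeR with a log2 fold change of -0.88 (SE 0.20, adjusted p = 0.000956). mt-Nd4l, a small membrane subunit of complex I, averaged 65.5 ± 4.59 CPM in Vehicle and 117 ± 27.4 CPM in Normal colon, a log2 fold change of -0.89 (SE 0.17, edgeR adjusted p = 0.000227). mt-Co2, mt-Atp6 and mt-Atp8, the last 2 being membrane subunits of the ATP synthase, fell by 0.67, 0.58 and 0.72 on the log2 scale (edgeR adjusted p = 0.00453, 0.0136 and 0.00183). The call of mt-Atp6 ended without Normal replicate 4.

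The 6 that did not pass were mt-Nd1, mt-Nd2, mt-Nd3, mt-Nd4 and mt-Nd5, all of complex I, and mt-Cytb of complex III, at log2 fold changes between -0.74 for mt-Nd4 and -0.32 for mt-Nd3. Normal replicate 2 had the highest level of mt-Nd4 among Normal libraries, 7416 CPM against 2935 to 4105 CPM in the other 3. mt-Nd6, the only protein gene on the other strand of mitochondrial DNA, was between 0.228 and 2.97 CPM in every library and was not tested. Without Normal replicate 2, the median of the mitochondrial genes was -0.46 and 6 of the 13 then tested were lower. With the counts of the nuclear copies added, 7 were lower, mt-Nd4 joining with a log2 fold change of -0.74 (edgeR adjusted p = 0.0469). Of the 7 copies, 6 also fell and Gm28438 did not pass. Gm28437, the copy of mt-Co3, had a log2 fold change of -0.85 (SE 0.19, edgeR adjusted p = 0.000833).

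In Isotype against Normal colon, 10 of the 12 mitochondrial genes fell and 2 did not pass, with a median log2 fold change of -0.95. Here 41.2% of all genes tested passed, 20.9% higher and 20.3% lower. mt-Co3 had 318, 482, 343 and 418 CPM in Isotype, against 1272, 998, 1131 and 1745 CPM in Normal libraries. The groups did not overlap, and the log2 fold change was -1.77 (SE 0.20, edgeR adjusted p = 6.71e-07). mt-Atp6 followed with -1.29 (SE 0.19, edgeR adjusted p = 1.69e-05). With the counts of the nuclear copies added, 9 of the 12 fell, and mt-Nd3 no longer passed at -0.65 (edgeR adjusted p = 0.081). Isotype replicate 3 carried the most mt-Nd5, 3881 CPM against 1168 to 1251 CPM in the other 3, and without that library 12 of the 13 then tested fell, with a median of -1.17.

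In Anti-TNF against Normal colon all 12 mitochondrial genes tested fell, between -1.51 for mt-Co3 and -0.70 for mt-Nd4l, with a median of -0.93. The background of this comparison was 22.4% of genes called, 12.5% higher and 9.89% lower. Without Normal replicate 2, 8 of the 13 then tested fell. With antibody libraries grouped as the whole-series table names them, 8 of 12 fell, and with the libraries named alike by both 5 of 12. Of the 12, 2 fell in MEKi 1 against Normal colon, mt-Nd4l at -0.65 (SE 0.17, edgeR adjusted p = 0.0122) and mt-Co3 at -0.58 (SE 0.20, edgeR adjusted p = 0.0497), where 12.8% of all genes passed, 8.06% higher and 4.79% lower. The other 10 had log2 fold changes below 0, and the median was -0.44. The call of mt-Nd4l ended without Normal replicate 4, and that of mt-Co3 without Normal replicate 1 or 4 or any one MEKi 1 library, and also with no filter, with only the groups compared, with the replicate block and with the copies added. These comparisons share the 4 Normal libraries.

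**Figure D2:**
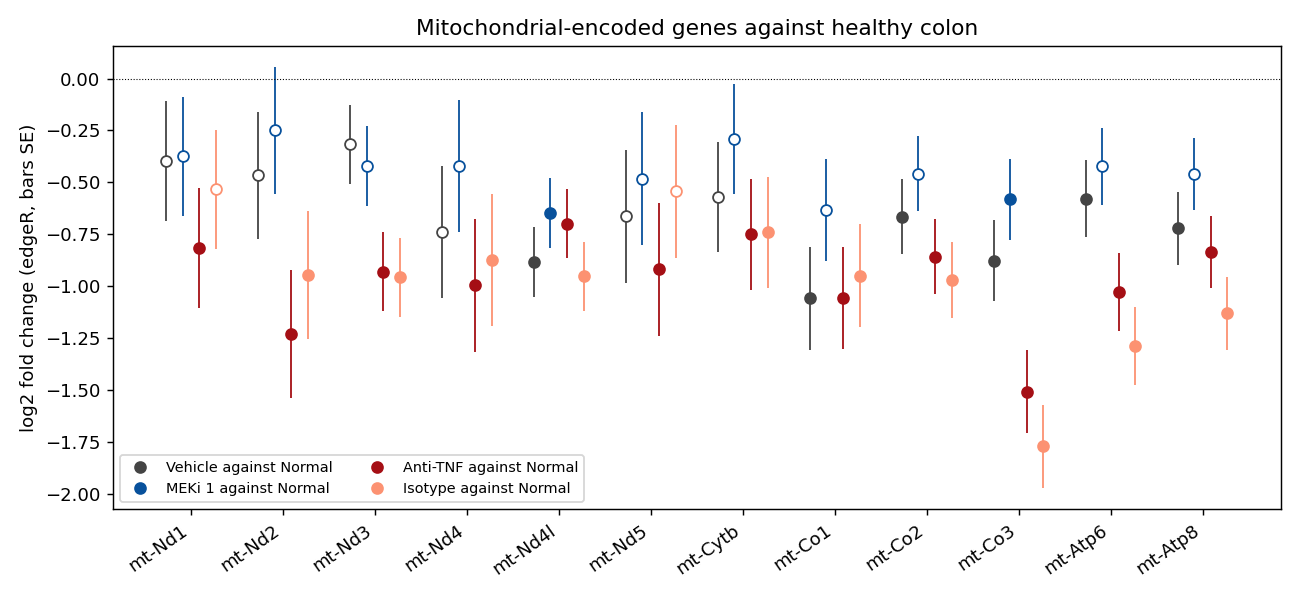
Log2 fold change against Normal colon of the 12 mitochondrial-encoded genes tested, with SE bars, for Vehicle, MEKi 1, Anti-TNF and Isotype; filled points passed an adjusted p of 0.05 by edgeR. All points lie below 0, and mt-Co3 reaches -1.77 in Isotype and -1.51 in Anti-TNF, against -0.88 in Vehicle and -0.58 in MEKi 1.

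Nuclear-encoded members moved one by one and in both directions. Of 90 tested, 6 rose, 6 fell and 78 did not pass in Vehicle against Normal colon, a share of 13.3% against 46.4% of all genes, with a median log2 fold change of 0.07. With complexes assigned by symbol, which places Ndufa4 in complex I, 2 of 38 complex I genes rose and 1 fell, and 1 of 4 complex II genes fell. In complex III 1 of 8 genes rose, in complex IV 1 of 14 rose and 2 fell, and in complex V 1 of 15 rose. The medians of the complexes lay between -0.10 for complex II and 0.13 for complex V. The members with the lowest counts were not tested: Cox6a2, Cox8b and Cox8c had 79, 26 and 1 counts over the series, the pseudogene Atp5l-ps2 had 21, mt-Nd6 had 181, and Cox7b2 had 0.

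**Figure D3:**
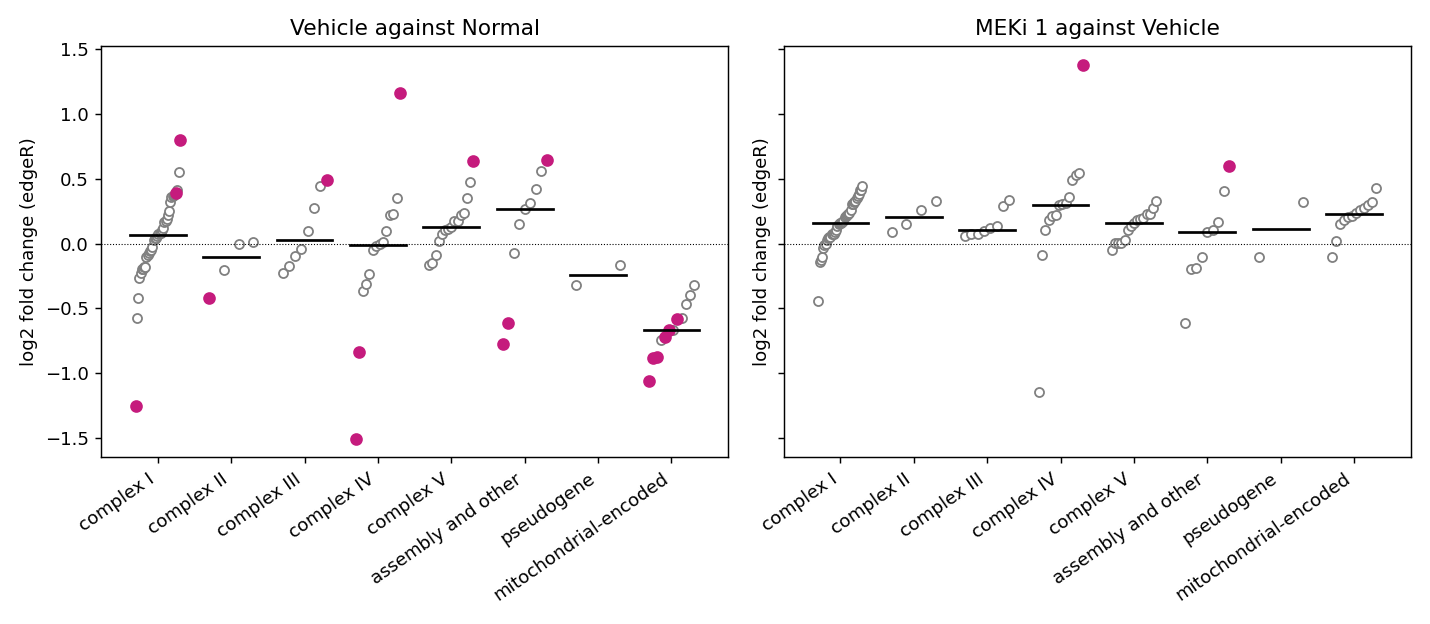
Log2 fold changes of the 102 members tested, by class, in Vehicle against Normal (left) and MEKi 1 against Vehicle (right); filled points passed an adjusted p of 0.05 by edgeR, and black lines are class medians. On the left the 12 mitochondrial genes lie below 0 while each complex of nuclear genes straddles 0; on the right Cox7a1 and Atp5sl are the 2 filled points.

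Cox7a1, the isoform of complex IV subunit 7a that heart and skeletal muscle use, had the largest decrease among nuclear members in Vehicle against Normal colon. It had 8.75, 7.59, 8.29 and 3.58 CPM in Vehicle, against 16.2, 28.2, 15.3 and 18.7 CPM in Normal libraries. The groups did not overlap, and the log2 fold change was -1.50 (SE 0.40, edgeR adjusted p = 0.00399). Cox7a2, the isoform that most other tissues use, averaged 267 ± 30.2 CPM in Vehicle and 223 ± 45 CPM in Normal colon (SD, n = 4 each), with a log2 fold change of 0.22 that did not pass. Per length, Cox7a1 made up 3.79% ± 1.19 of the sum of both in Vehicle, 7.83% ± 2.88 in MEKi 0.3, 8.47% ± 3.46 in MEKi 1, 8.67% ± 4.2 in Anti-TNF, 5.05% ± 1.80 in Isotype and 11.5% ± 0.909 in Normal libraries (SD, n = 4 each). The Normal libraries, at 10.7% to 12.8%, lay above all Vehicle libraries at 2.19% to 5.07%. In Isotype against Normal colon Cox7a1 fell by 1.23 on the log2 scale (SE 0.38, edgeR adjusted p = 0.0127).

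Smooth muscle transcripts were also lower in Vehicle than in Normal colon, as were those of several other cell types. All 9 smooth muscle markers fell in Vehicle against Normal colon, at a median of -1.59 on the log2 scale. They summed to 1724 to 3766 CPM in Vehicle and 7649 to 9397 CPM in Normal libraries, with none at 0. Of 6 skeletal muscle markers, the 2 tested fell, with sums of 9.86 to 20.9 CPM in Vehicle and 36.7 to 53.3 CPM in Normal libraries, and Myh4 was at 0 in both groups. The 4 adipocyte markers tested, of 6, fell too, with Ucp1 at 0 in both groups, with sums of 17.3 to 27.8 CPM in Vehicle and 101 to 112 CPM in Normal libraries. Surface colonocyte markers and enteric neuron and glia markers had medians of -2.77 and -2.16, while T cell and monocyte and macrophage markers rose. The part of these cell types in the Cox7a1 result was not tested.

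Promoters were matched by symbol to RefSeq (GRCm38.p6, 250 bases before to 50 after the start) for 74 of the 95 nuclear members. The NRF1 motif GCGCATGC, searched on both strands, was in 16.2% of them and in 3.05% of the 27025 genes with a promoter of that length. The ETS family motif CCGGAAG was in 23.0% of members and 9.93% of all genes, and the YY1 motif AAGATGGC in 13.5% of members and 3.19% of all genes. The TATA box TATAAA was in 9.46% of members and 15.7% of all genes. Motifs of NRF1, ETS factors and YY1 are known in promoters of respiratory genes, and a match is a description, not a binding site. The promoters of Cox7a1, which fell in colitis, and of Uqcr11, a small subunit of complex III that rose, are shown because the first holds none of these motifs and the second holds 2 of them. They lie at chr7:30183921-30184220 (plus strand) and chr10:80406772-80407071 (minus strand). Among other members called in Vehicle against Normal colon, Ndufa4, Atp5g1 and Cox6b2 rose and Ndufa1 and Sdha fell with none of these motifs. Ndufs8 rose with an ETS motif, and Atp5sl fell with a YY1 motif. Whether motifs go with direction was not tested. The capitals mark an ETS motif and an NRF1 motif, both in Uqcr11.
Cox7a1: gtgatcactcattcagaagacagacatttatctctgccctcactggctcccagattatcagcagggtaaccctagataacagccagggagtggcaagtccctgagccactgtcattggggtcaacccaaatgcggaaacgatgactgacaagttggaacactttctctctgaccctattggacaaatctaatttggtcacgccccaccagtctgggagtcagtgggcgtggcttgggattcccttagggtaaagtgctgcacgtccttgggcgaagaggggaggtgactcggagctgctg
Uqcr11: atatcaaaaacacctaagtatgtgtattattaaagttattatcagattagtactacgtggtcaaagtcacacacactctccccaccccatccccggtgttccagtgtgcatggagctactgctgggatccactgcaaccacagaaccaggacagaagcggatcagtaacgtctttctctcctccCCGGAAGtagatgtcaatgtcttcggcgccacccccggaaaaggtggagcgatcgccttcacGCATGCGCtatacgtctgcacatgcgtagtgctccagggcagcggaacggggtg

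Ndufa1, a small accessory subunit that complex I needs to assemble, had 32.4, 29.6, 31.0 and 27.0 CPM in Vehicle, against 48.3, 127, 47.8 and 55.3 CPM in Normal libraries. It fell by 1.25 on the log2 scale (SE 0.28, edgeR adjusted p = 0.00116). Normal replicate 2 was far above its group, and without it the log2 fold change was -0.79 with an edgeR adjusted p of 0.00773. The same library decided Cox6c, a structural subunit of complex IV, which had 67.4 to 109 CPM in Vehicle and 97.6 to 283 CPM in Normal libraries. Cox6c fell by 0.83 on the log2 scale (SE 0.27, edgeR adjusted p = 0.0162), and without Normal replicate 2 the log2 fold change was -0.34 with an edgeR adjusted p of 0.178, a call that also ended without Vehicle replicate 4. The remaining nuclear members that fell were Sdha, the flavoprotein of succinate dehydrogenase, by 0.42, Atp5s, a factor of the ATP synthase, by 0.78, and Atp5sl, now called Dmac2 and known for the assembly of complex I, by 0.61 on the log2 scale (edgeR adjusted p = 0.0128, 0.0371 and 0.00354). The call of Sdha ended without Normal replicate 4, and that of Atp5s when any one of 6 libraries was left out, all but Normal replicate 1 and Vehicle replicate 3.

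Among the 6 nuclear genes that rose in Vehicle against Normal colon, the smallest p was that of Ndufa4, named for complex I and now known as a subunit of complex IV. It had 160, 139, 155 and 178 CPM in Vehicle, against 90.1, 72.4, 84.9 and 102 CPM in Normal libraries. The groups did not overlap, and the log2 fold change was 0.80 (SE 0.23, edgeR adjusted p = 0.00636). Its paralog Ndufa4l2, a hypoxia-inducible gene, made up 0.599% ± 0.334 of their per-length sum in Vehicle and 0.692% ± 0.473 in Normal colon (SD, n = 4 each), with 23 to 74 counts per group. Atp5g1, which encodes the proton-carrying subunit c of the ATP synthase together with Atp5g2 and Atp5g3, averaged 261 ± 49.5 CPM in Vehicle and 164 ± 28.8 CPM in Normal colon, a log2 fold change of 0.64 (SE 0.20, edgeR adjusted p = 0.0103). Atp5g2 and Atp5g3 had log2 fold changes of 0.18 and 0.35 and did not pass. Cox6b2, the testis isoform of a complex IV subunit, rose by 1.16 on the log2 scale (SE 0.43, edgeR adjusted p = 0.0296) at 5.61 to 8.64 CPM in Vehicle, against 0.983 to 4.11 CPM in Normal libraries. The Cox6b2 call ended without Normal replicate 2 or 4 or Vehicle replicate 4, and with the offset for transcript length described later (log2 fold change 0.96, edgeR adjusted p = 0.0757). Its ubiquitous partner Cox6b1 was near 409 CPM in Vehicle and 311 CPM in Normal colon and did not pass. Uqcr11, the complex I assembly factor Ndufaf6 and the iron-sulfur subunit Ndufs8 rose by 0.49, 0.65 and 0.39 on the log2 scale (edgeR adjusted p = 0.022, 0.0273 and 0.036). The call of Uqcr11 ended without Normal replicate 2 or Vehicle replicate 3, that of Ndufaf6 without Normal replicate 3 or Vehicle replicate 2 or 4, and that of Ndufs8 without Normal replicate 3 or 4 or Vehicle replicate 1, 2 or 3.

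**Figure D4:**
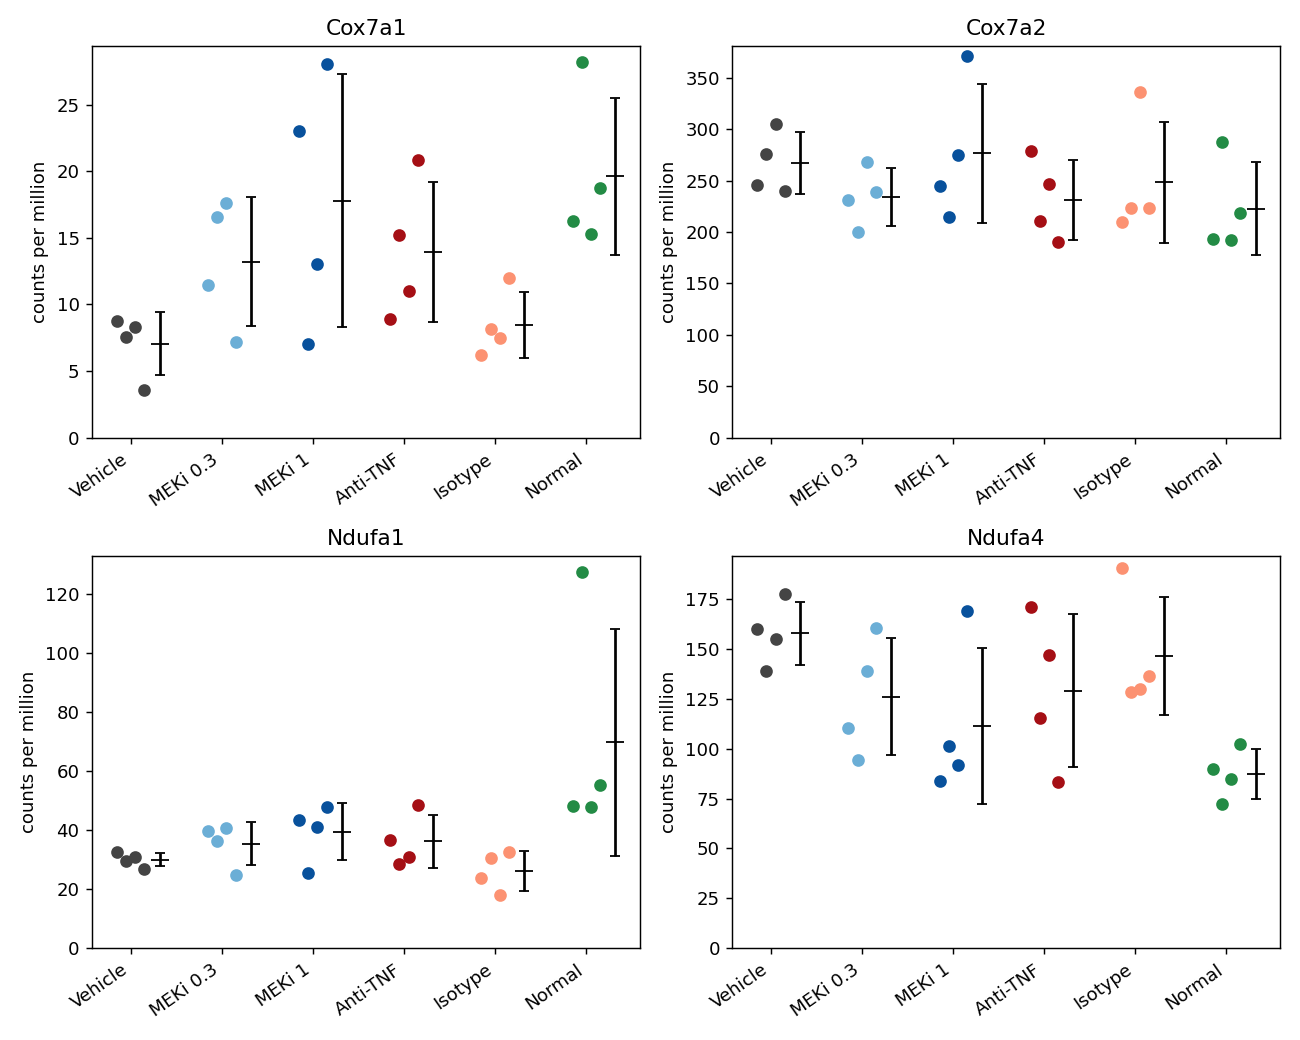
CPM of Cox7a1, Cox7a2, Ndufa1 and Ndufa4 in each library by group, with the mean and SD beside the points. Vehicle libraries lie below all Normal libraries for Cox7a1 and Ndufa1 and above them for Ndufa4, while Cox7a2 overlaps; Normal replicate 2, at 127 CPM, is the high point of Ndufa1.

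Of the remaining isoform sets and small subunits, Cox4i1, Cox7b, Cox8a, Cox6a1, Ndufab1, Uqcrb and Uqcrh did not pass in Vehicle against Normal colon, with log2 fold changes between -0.23 for Cox4i1 and 0.10 for Uqcrb. Cox4i2, the oxygen-responsive lung isoform of subunit 4, made up 0.475% ± 0.183 of the Cox4 sum per length in Vehicle and 0.523% ± 0.181 in Normal colon. Cox7a2l, a factor that links complexes III and IV, did not pass in Vehicle at -0.31, and fell in Isotype and in Anti-TNF against Normal colon by 0.80 and 0.61 on the log2 scale (edgeR adjusted p = 9.44e-05 and 0.00249).

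In Isotype against Normal colon 18 of 90 nuclear members passed, 3 higher and 15 lower, a share of 20.0% against 41.2% of all genes. In Anti-TNF against Normal colon 10 passed, 2 higher and 8 lower, or 11.1% against 22.4% of all genes. Ndufb4, an accessory subunit of complex I, fell by 1.33 in Isotype and 1.21 in Anti-TNF against Normal colon on the log2 scale (edgeR adjusted p = 0.000359 and 0.00187), at 10.1 to 16.1 CPM in Isotype and 14.5 to 15.9 CPM in Anti-TNF, against 21.5 to 59.0 CPM in Normal libraries. Against the direction of most, Atp5e, the epsilon subunit of the ATP synthase, rose by 0.73 in Isotype and 0.80 in Anti-TNF (edgeR adjusted p = 0.00934 and 0.0103), at 222 to 249.3 and 208 to 281 CPM, against 115 to 197 CPM in Normal libraries. In MEKi 1 against Normal colon 2 nuclear members passed, Uqcr11 at 0.62 and Atp5g1 at 0.58 (edgeR adjusted p = 0.0174 and 0.0489). The Uqcr11 call ended without Normal replicate 2 or MEKi 1 replicate 2 or 4, and the Atp5g1 call without Normal replicate 2, 3 or 4 or MEKi 1 replicate 1, 2 or 4. The Atp5g1 call also ended with RLE size factors, with no filter, with a minimum of 5 CPM, with voom, with only the groups compared, with the replicate block and with the length offset.

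The treatments moved few members relative to their controls. In MEKi 1 against Vehicle colon 2 of 102 members rose and none fell, a share of 1.96% where 10.6% of all genes passed, 6.08% higher and 4.51% lower. Cox7a1 had 23.0, 7.05, 13.0 and 28.0 CPM in MEKi 1, against 8.75, 7.59, 8.29 and 3.58 CPM in Vehicle libraries. MEKi 1 replicate 2 lay within the Vehicle range, and the log2 fold change was 1.38 (SE 0.40, edgeR adjusted p = 0.0339). Atp5sl averaged 64.3 ± 8.16 CPM in MEKi 1 and 44.0 ± 5.51 CPM in Vehicle colon (SD, n = 4 each), without overlap, a log2 fold change of 0.60 (SE 0.16, edgeR adjusted p = 0.0267). Both calls ended when any of Vehicle replicates 1, 2 and 4 or MEKi 1 replicates 1 and 3 was left out, and then 0 members passed, with edgeR adjusted p between 0.052 and 0.12. Smooth muscle markers summed to 2719 to 4924 CPM in MEKi 1 and 1724 to 3766 CPM in Vehicle libraries, and 1 of 9 rose, at a median of 0.47; their part in the Cox7a1 result was not tested. Cox7a1 was also lost without MEKi 1 replicate 4.

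A broad upward lean of the set in MEKi 1 rested on that library. The median log2 fold change in MEKi 1 against Vehicle was 0.16 for nuclear and 0.23 for mitochondrial members, and 86 of 102 were positive. The 95 nuclear genes summed to 27517 CPM in MEKi 1 replicate 4, against 20308 to 21306 CPM in the other 3 MEKi 1 libraries and 18896 to 24066 CPM in Vehicle libraries. Uqcr10, a small subunit of complex III, had 638 CPM in that library, against 266 to 314 CPM in the other 3. Without it the nuclear median was -0.01 and the mitochondrial median 0.07.

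In MEKi 0.3 against Vehicle colon 0 of 102 members passed with edgeR, where 0.00677% of all genes did, and 4 members had an unadjusted p under 0.05 while DESeq2 called 0 members and voom with sample weights called 8, 5 higher and 3 lower, with 3357 of all genes. With the replicate numbers as pairs on these groups alone, 0 of 101 members passed where 2.97% of all genes did (405 of 13635). Cox7a1 had 11.5, 16.6, 17.6 and 7.19 CPM in MEKi 0.3, so that 3 of the 4 lay above all Vehicle libraries, with a log2 fold change of 0.93 (SE 0.40, edgeR adjusted p = 0.242). The medians were -0.04 for nuclear and 0.05 for mitochondrial members. In Anti-TNF against Isotype colon 0 of 102 members passed, none had an unadjusted p under 0.05, DESeq2 called 0, and 0.0203% of all genes passed. The largest log2 fold change was again that of Cox7a1, 0.73 (SE 0.37, edgeR adjusted p = 0.475). It had 8.89, 15.2, 11 and 20.8 CPM in Anti-TNF, against 6.25, 8.20, 7.49 and 12 CPM in Isotype libraries, which overlap. The difference between the MEKi 1 effect and the Anti-TNF effect, tested per gene, passed for 0 members, with 0 at an unadjusted p under 0.05, 0 by DESeq2 and 0.0135% of all genes, and was 0.65 for Cox7a1 (SE 0.55, edgeR adjusted p = 0.934).

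Most members have short transcripts. The fold changes of all genes followed transcript length in the comparisons with Vehicle and in MEKi 1 against Normal colon. Over 5 length bins, medians in Isotype against Normal colon lay between -0.06 and 0.07, in no steady order. Those in Anti-TNF against Normal colon lay between -0.09 and 0.03, also in no steady order. Anti-TNF against Isotype had -0.03 in the shortest bin and 0.04 in the longest. The nuclear members tested had a median length of 751 bases and the mitochondrial ones 870, against 2501 over all genes tested. In Vehicle against Normal colon, the median log2 fold change of all genes was 0.25 in the shortest of 5 equal length bins and -0.28 in the longest. The 65 nuclear members in the shortest bin had a median of 0.09, the 17 in the next a median of -0.02 against 0.18 for all genes of that length, and the 7 in the third -0.15 against 0.00. With an offset for transcript length fitted in each library, 34 members passed in Vehicle against Normal colon, with 44.4% of all genes (21.9% higher, 22.6% lower): 3 nuclear members rose, 19 nuclear members fell, and all 12 mitochondrial genes fell. The nuclear median then turned to -0.16, and the mitochondrial median was -0.83. Members lower under that offset and not before included Cox4i1 at -0.49, Cox7a2l at -0.56, Uqcrc2, a core protein of complex III, at -0.39 and Sdhc at -0.34, while Atp5g1, Ndufa4 and Ndufaf4 were the 3 higher, at 0.63, 0.60 and 0.50. The calls of Ndufaf6, Ndufs8 and Uqcr11 ended under it (edgeR adjusted p = 0.151, 0.391 and 0.172).

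**Figure D5:**
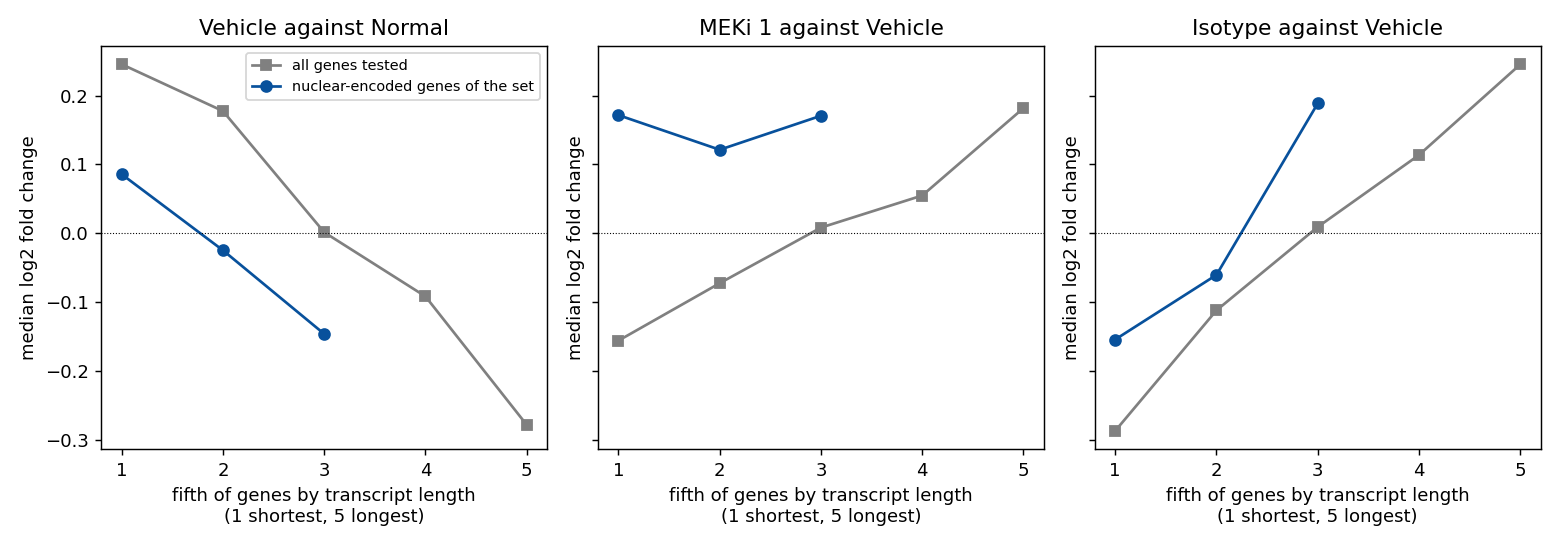
Median log2 fold change in 5 bins of transcript length, for all genes tested and for nuclear-encoded members (bins with at least 5 of them, 65, 17 and 7 genes). In Vehicle against Normal the members lie below all genes of like length, and in MEKi 1 against Vehicle above them, 0.17 against -0.16 in the shortest bin.

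The length offset gave 8 members in MEKi 1 against Vehicle, all nuclear and all higher, with 9.96% of all genes called, 5.09% higher and 4.87% lower: Cox7a1 at 1.47, Atp5sl at 0.65, Cox5b at 0.64, Cox6a1 at 0.60, Ndufa6 at 0.53, Cox4i1 at 0.47, Cox8a at 0.44 and Ndufb11 at 0.41. Of these, 5 encode subunits of complex IV, and MEKi 1 replicate 4 was the highest MEKi 1 library for each of those 5. Cox6a1 had 1433 CPM in it, against 742 to 1083 CPM in the other MEKi 1 libraries, and Cox5b 435 against 186 to 303 CPM. The offset was not fitted without that library.

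In Isotype against Vehicle colon, which compares colitis groups under different control treatments, 8 of 102 members passed where 2.99% of all genes did, 1.32% higher and 1.67% lower. Those that fell were mt-Co3 at -0.89, mt-Atp6 at -0.71, Uqcr10, Uqcr11, Cox7c, Ndufa12 and the pseudogene Atp5l-ps1, and Ndufv1, the subunit that takes electrons from NADH, rose by 0.49 on the log2 scale (edgeR adjusted p = 0.049). Uqcr10 had 212, 217, 190 and 178 CPM in Isotype, against 310.1, 317, 472 and 370.1 CPM in Vehicle libraries, a log2 fold change of -0.89 (SE 0.23, edgeR adjusted p = 0.0339). All genes in the shortest bin had a median of -0.29 here, and those in the longest 0.25. In the shortest bin 7.33% of all genes passed, where 5 of 65 nuclear members did, and the share of all members was 7.84%. With the length offset 1 member passed, Ndufv1, where 0.223% of all genes did, 0.0745% higher and 0.149% lower, and the nuclear median was 0.12 in place of -0.12. Leaving out any one of the 8 libraries left 1 to 4 members. Restricted to the 2 Isotype libraries that both namings assign to that group, 0 members and 4 of 15313 genes passed with edgeR. Library totals also differed without overlap, at 4102817 to 5271844 counts in Vehicle and 6139216 to 10587555 in Isotype. Effects of depth and of the control treatments cannot be told apart here.

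Genes around the pathway were described from lists by their counts. Among 8 tested regulators of mitochondrial biogenesis, 4 fell and none rose in Vehicle against Normal colon, with a median of -0.25. Of all genes tested, 46.4% passed in that comparison, 23.1% higher and 23.3% lower. The 4 of 8 called were thus near the share of all genes called in either direction. Ppargc1a, the coactivator PGC-1 alpha that drives respiratory gene programmes, averaged 7.06 ± 2.42 CPM in Vehicle and 43.2 ± 6.28 CPM in Normal colon (SD, n = 4 each), a log2 fold change of -2.65 (SE 0.48, edgeR adjusted p = 0.00021). Esrrg, a nuclear receptor that works with it, had a log2 fold change of -2.51 (edgeR adjusted p = 0.000317). In MEKi 1 against Vehicle, 2 of the 8 rose, Ppargc1a to 22.5 ± 7.26 CPM (log2 fold change 1.71, edgeR adjusted p = 0.0329) and its relative Ppargc1b by 0.78 (edgeR adjusted p = 0.0251). Here the share was 25.0%, against 10.6% of all genes. Of 14 genes of mitochondrial DNA upkeep and transcription, Polg2, an accessory subunit of the mitochondrial DNA polymerase, and Peo1, the mitochondrial helicase, fell by 1.05 and 0.52 in Vehicle against Normal colon, Pnpt1 rose by 0.53, and Polg2 and Peo1 rose by 1.03 and 0.54 in MEKi 1 against Vehicle (edgeR adjusted p = 0.00422, 0.0111, 0.0181, 0.0281 and 0.0365). These were shares of 21.4% in Vehicle against Normal colon and 14.3% in MEKi 1 against Vehicle.

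Of 13 enzymes of the tricarboxylic acid cycle, 5 fell and 1 rose in Vehicle against Normal colon, with a median of -0.21, a share of 46.2% against 46.4% of all genes. Cs, citrate synthase, averaged 633 ± 54.4 CPM in Vehicle and 953 ± 71.6 CPM in Normal colon, a log2 fold change of -0.63 (SE 0.14, edgeR adjusted p = 0.00068), and Suclg2 and Ogdh fell by 0.75 and 0.70. Of 17 glycolysis genes, 11 rose and 3 fell, a share of 82.4%, with a median of 0.58. Hk2, hexokinase 2, averaged 511 ± 90.0 CPM in Vehicle and 177 ± 33.8 CPM in Normal colon (log2 fold change 1.49, edgeR adjusted p = 3.9e-05), and Eno1 and Pgk1 rose by 1.37 and 1.32. Of 8 hypoxia-inducible factor targets, 3 rose and 1 fell, with a median of 0.15. Of 5 carriers and subunits outside the naming rule 1 rose, a share of 20.0%. It was Cycs, cytochrome c, which rose by 0.92 (SE 0.22, edgeR adjusted p = 0.00161). Assembly factors outside the rule split, with 8 higher and 4 lower of 37, a share of 32.4%, led by Cox11 at 1.05 and Cox10 at 0.60.

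Ribosomal protein genes, described as a set of short transcripts, rose in Vehicle against Normal colon without exception among those called: 35 of 80 mitochondrial ribosomal proteins, with a median of 0.39, and 30 of 77 cytosolic ones, with a median of 0.39. These are shares of 43.8% and 39.0%, against 46.4% of all genes in either direction and 23.1% higher. Cell composition differed between the same groups. T cell markers summed to 123 to 169 CPM in Vehicle and 9.53 to 12.7 CPM in Normal libraries, with all 7 higher and Cd3d, Cd3e and Cd5 at 0 in Normal libraries. The 8 monocyte and macrophage markers were all higher, with sums of 2788 to 4521 CPM in Vehicle and 613 to 691 CPM in Normal libraries. Of 8 surface colonocyte markers, 6 fell and 1 rose, with sums of 1601 to 1827 CPM in Vehicle and 7041 to 8664 CPM in Normal libraries. Neutrophil markers had 6 of 7 higher, while 3 of 6 pericyte markers and 4 of 5 tested enteric neuron and glia markers fell. Of 8 goblet cell markers 3 rose and 4 fell, and of 10 general epithelial markers 2 rose and 1 fell, with none at 0 in Vehicle or Normal libraries. In MEKi 1 against Vehicle, 4 of 7 T cell, 4 of 8 monocyte and macrophage and 5 of 7 neutrophil markers fell and 3 of 8 surface colonocyte markers rose, with colonocyte sums of 1747 to 5023 CPM in MEKi 1 and 1601 to 1827 CPM in Vehicle libraries. The part of cell composition in the results on the respiratory genes was not tested.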

How the data were processed

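The submitters deposited a count file per library, and read counts per gene symbol were taken from it; per the labels' protocols, polyA RNA was fragmented with RNase III, prepared with an Ion Total RNA-Seq kit and sequenced on an Ion Torrent instrument. The genome build is named as mm10 in the submitters' processing notes. No source used here names an aligner or counter. The deposited whole-series table of counts was used only to compare names. CPM was computed here as counts over the library total. Tests used edgeR 4.0.16 (R 4.3.3) with filterByExpr, TMM factors and the robust quasi-likelihood fit on all 24 libraries in 6 groups, with Benjamini-Hochberg adjustment over the 14773 genes tested and a threshold of 0.05. Of 108 members, 102 were tested. Standard errors are the log2 fold change over the square root of F.

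Transcript length is the median of basic transcripts in GENCODE M21; 40423 symbols were matched, of which 39469 carry an identical name there. Stretches of 50 bases shared between transcripts of different genes were counted. Alternatives were DESeq2 1.42.0, limma 3.58.1 (voom with sample weights), other size factors, filters and subsets, a length offset, a replicate block and omission of each library. Chosen after seeing the data were the counts of nuclear copies added to mitochondrial genes, the omission of both libraries highest in mitochondrial ribosomal RNA, and, for MEKi 0.3 against Vehicle, a block on these groups alone. Replicate numbers were checked for pairing. In MEKi 0.3 against Vehicle every pair's deviations correlated at 0.125 to 0.184, so the numbers were taken as pairs there. With the block 0 members passed, where 405 of 13635 genes did on these groups alone. Every pair also correlated in Anti-TNF against Isotype, at 0.0862 to 0.342, and no block on those groups alone was fitted. Named genes were all mitochondrial members, listed paralog sets, in each class up to 4 called members with the smallest p, exceptions in direction, the 5 highest members, up to 3 called genes of each list, and members whose call an alternative ended. The members and lists were chosen with earlier results of these data known. The fit was tested on simulated data. All samples were mapped, with 0 columns left unmapped.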

Additional observations from a re-analysis of the deposited data

Results flagged for a closer look

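Summed levels, ratios and named members were checked for a lone high or low library, 204 groups of 4 libraries in all. In 24 a library lay apart from the other 3 by Dixon's criterion for a lone value, and chance flags about 1 in 20 groups.

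MEKi 1 replicate 4 was high for the summed nuclear members, at 27517 CPM against 20308 to 21306 in the other 3, for complex I at 6709 CPM, complex III at 3357 CPM and complex V at 9278 CPM, and for Uqcr10 at 638 CPM and Ndufb4 at 42.5 CPM. Isotype replicate 3 was high for the summed mitochondrial members at 40985.5 CPM, for the ratio of mitochondrial to nuclear members at 2.05, for mitochondrial ribosomal RNA at 4928 CPM against 854 to 1390 in the other 3, for mt-Co1 at 13615 CPM, mt-Nd1 at 6583 CPM and mt-Nd5 at 3881 CPM, and for Cox7a2 at 336 CPM. Anti-TNF replicate 4 was high for the same ratio at 1.60 and for mt-Co1 at 11775 CPM. Normal replicate 2 was high for Cox6c at 283 CPM, Ndufa1 at 127 CPM and Atp5e at 197 CPM, and low for Atp5b at 2084 CPM. Vehicle replicate 1 was high for mitochondrial ribosomal RNA at 1886 CPM, and Vehicle replicate 4 was low for Ndufs8 at 155 CPM. Isotype replicate 1 was low for complex II at 1123 CPM and high for Ndufa4 at 191 CPM, and Isotype replicate 4 was low for Cox4i2 at 1.42 CPM.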

How the results depend on the processing

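Members called stayed within 1.5 times the main count in Isotype against Normal colon, and at 0 for Anti-TNF against Isotype and for the MEKi 1 effect minus the Anti-TNF effect, under every alternative run. With voom and sample weights the counts were 29 in Vehicle against Normal, 25 in Isotype against Vehicle, 8 in MEKi 0.3 against Vehicle, 10 in MEKi 1 against Vehicle and 44 in Anti-TNF against Normal, against 18, 8, 0, 2 and 22. With a length offset they were 34 in Vehicle against Normal, 1 in Isotype against Vehicle and 8 in MEKi 1 against Vehicle. With no filter they were 3 in Isotype against Vehicle, 1 in MEKi 1 against Vehicle and 2 in MEKi 1 against Normal; with DESeq2, 4 in MEKi 1 against Vehicle and 7 in MEKi 1 against Normal; with only the groups compared, 2 in MEKi 1 against Normal. The replicate block left 1 in MEKi 1 against Vehicle and 2 in MEKi 1 against Normal, and 17 in Vehicle against Normal. Same-numbered libraries also correlated in Anti-TNF against Isotype, at 0.0862 to 0.342. With the replicate block on all groups 0 members passed there, and a block on those groups alone was not fitted. The other comparisons checked, apart from MEKi 0.3 against Vehicle, had correlations of both signs. Antibody libraries grouped by the whole-series table gave 4 in Isotype against Vehicle, and those named alike by both gave 0 there and 7 in Anti-TNF against Normal.

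Leaving out each library gave 14 to 22 members in Vehicle against Normal, 21 to 30 in Isotype against Normal, 1 to 4 in Isotype against Vehicle, 0 to 6 in MEKi 1 against Vehicle, 1 to 8 in MEKi 1 against Normal and 12 to 28 in Anti-TNF against Normal. In MEKi 1 against Normal the extremes came without Normal replicate 4 or MEKi 1 replicate 4, with 1 member each, and without MEKi 1 replicate 3, with 8. In Anti-TNF against Normal, 14, 14 and 12 members were left without Anti-TNF replicates 1, 2 and 3. Medians changed sign by more than the spread between replicates, or without a library, as follows. With the length offset the nuclear median was -0.16 in Vehicle against Normal and 0.12 in Isotype against Vehicle, where the mitochondrial median was 0.0192. Without MEKi 1 replicate 4 the nuclear median was -0.0083 in MEKi 1 against Vehicle, within -0.0083 to 0.242 over all omissions, and -0.0997 in the MEKi 1 effect minus the Anti-TNF effect, within -0.0997 to 0.157. The mitochondrial median of that difference, 0.19, became -0.16 with antibody libraries grouped by the table, -0.26 with those named alike by both, -0.0882 without Isotype replicate 3 (-0.0882 to 0.223 over all omissions) and -0.0875 without both libraries highest in mitochondrial ribosomal RNA. There were 7 sign changes smaller than that spread under alternatives other than omissions of one library. The nuclear median became 0.0588 in MEKi 0.3 against Vehicle with the length offset, and -0.0251 with a minimum of 5 CPM and -0.0165 with libraries named alike in Anti-TNF against Normal. In the MEKi 1 effect minus the Anti-TNF effect it became -0.0435 with voom, -0.0528 with libraries named alike and -0.0056 without both libraries highest in mitochondrial ribosomal RNA. The mitochondrial median in Anti-TNF against Isotype became -0.0487 with the copies added. The cause of these changes was not tested.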
